A study of Mus musculus with 29 samples.

Results

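The clustered replication-dependent histone genes were taken as every gene row of the count table whose symbol begins with Hist1h, Hist2h, Hist3h or Hist4h, which gave 68 members of 24448 gene rows. They comprised 6 genes of linker histone H1, 18 of H2A, 19 of H2B (1 of them the pseudogene Hist3h2bb-ps), 12 of H3 and 13 of H4. By cluster, 54 members lay in cluster 1 on chromosome 13, 10 in cluster 2 on chromosome 3, 3 in cluster 3 on chromosome 11 and 1, Hist4h4, alone on chromosome 6. RNA was measured in 29 libraries: 8 HU embryos, 12 single cumulus cells and 9 control embryos. Each embryo library held 1 BDF1 mouse embryo, made by injecting a cumulus cell nucleus into an enucleated egg, activated for 6 h with 10 mM strontium, 5 ug/ml CB and 2 mM EGTA, and picked at the 2-cell stage 28 h after activation. After activation, HU embryos were kept for 24 h in medium with 10 uM hydroxyurea (HU), which blocks ribonucleotide reductase and so slows DNA synthesis, before a change to medium without it, whereas control embryos had no HU at any time. Cumulus cells, the follicle cells around the egg and the type of the donor nucleus, were picked singly from BDF1 mice. The labels name no animal or culture behind any library, so p-values measure only the spread between these embryos, and the 12 cells count as 1 sample with no test.

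Replication-dependent histone genes supply the histones that package newly made DNA, and most mammalian cells transcribe them mainly in S phase. Their mature mRNA usually has no poly(A) tail: the transcript is cut just behind a conserved stem-loop, which the stem-loop binding protein Slbp recognises, and in cultured mammalian cells this mRNA is degraded when replication is blocked. Smart-seq2, the library method, primes cDNA synthesis from poly(A) tails, so the counts below come from the polyadenylated part of these transcripts or from priming at other runs of A, and are no measure of the total histone mRNA. Mouse eggs store histone mRNA, and Slbp accumulates as the egg matures.

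The stem-loop marks where the usual, tail-less transcript ends, and is printed here for members described below, 5′ to 3′, with 7 bases on each side and the 16 bases of the stem-loop in capitals. Sequences and positions are from GENCODE M21 on GRCm38, the assembly also called mm10.
Hist1h1c (H1, chr13:23739512-23739527, plus strand): tccaaaaGGCTCTTTTCAGAGCCaccactc
Hist1h2ae (H2A, chr13:23570668-23570683, minus strand): aaacaaaGGCTCTTTTCAGAGCCattcact
Hist3h2a (H2A, chr11:58955172-58955187, plus strand): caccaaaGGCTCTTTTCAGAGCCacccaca
Hist1h2bj (H2B, chr13:22043638-22043653, plus strand): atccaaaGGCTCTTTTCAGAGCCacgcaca
Hist1h2bk (H2B, chr13:22036300-22036315, plus strand): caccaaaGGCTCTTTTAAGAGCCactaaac
Hist1h3f (H3, chr13:23544932-23544947, plus strand): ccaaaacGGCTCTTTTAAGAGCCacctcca
Hist1h4c (H4, chr13:23698089-23698104, minus strand): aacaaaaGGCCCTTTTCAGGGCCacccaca
Hist1h4a (H4, chr13:23760800-23760815, minus strand): aaccaaaGGCCCTTCTCAGGGCCgcccaca
Hist1h4j (H4, chr13:21735437-21735452, plus strand): ccctaaaGGTCCTTTTCAGGACCaccacat
Hist4h4 (H4, chr6:136803998-136804013, minus strand): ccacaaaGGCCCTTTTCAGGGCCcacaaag
The histone stem-loop consensus was found in the sense strand of a GENCODE transcript of 46 members, and in 63.2% of the 76 member transcripts, against 0.0783% of all 141767 transcripts. The form of Hist1h1c was shared by 26 members of H1, H2A, H2B and H3, and that of Hist1h4c by 7 members, every one of them an H4 gene. In the other 22 members no such sequence lay in the annotated transcripts, 16 of which were under 500 bases long, so nothing follows about their genes.

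The same annotation gives some members a longer transcript that runs past the stem-loop to a polyadenylation signal, the route by which a histone transcript would carry a tail. The signal AATAAA was found in the last 40 bases of an annotated transcript of 15 members, 12 of which also had the stem-loop, in the same or another transcript. Hist1h2be, on the minus strand, is an exception to the route: its signal printed below lies 5′ of its stem-loop (chr13:23585531-23585546). The transcript that ends with that signal therefore does not reach the stem-loop. Of the member transcripts 21.1% ended this way, against 25.8% of all transcripts. The signal is shown in capitals, with the bases around it, for members with counts in cumulus cells or in every embryo.
Hist1h1c (chr13:23740342-23740347, plus strand): gtgtatgcttctAATAAAaagcgtttagtt
Hist3h2a (chr11:58956797-58956802, plus strand): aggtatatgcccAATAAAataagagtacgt
Hist3h2ba (chr11:58949507-58949512, plus strand): cataatggtattAATAAAtttggttcaatt
Hist1h2ae (chr13:23570539-23570544, minus strand): cccagcttctccAATAAAtgggtcaatttt
Hist1h2be (chr13:23618989-23618994, minus strand): agacaagaAATAAAtaaatgaaaatta
Hist1h4j (chr13:21735827-21735832, plus strand): aataaaattctgAATAAAactgc
Hist1h4a (chr13:23760715-23760720, minus strand): agaaattgagtaAATAAAccttgagtgcct
Hist4h4 (chr6:136801556-136801561, minus strand): tagaggagatgaAATAAAtac
Hist1h1c illustrates the distance: its GENCODE transcript ran 840 bases beyond the stem-loop, whereas its RefSeq gene (GRCm38.p6) ended 4 bases beyond it. The gene lengths behind the deposited FPKM values equalled the RefSeq span for 38 of 57 members with counts, Hist1h1c with 725 bases among them. Reads from the far 3′ ends of such long transcripts may therefore lie outside the counted models, whose annotation the sources do not name. The 15 members with the signal held 70.3% of the member counts in cumulus cells (75.6% without cumulus cell 2, which stands apart as described below), against 21.6% in the embryos. Hist1h1c alone gave 717 of these 891 cumulus cell counts. With Hist1h1c left out the share was 31.6% in cumulus cells (30.2% also without cell 2), against 20.99% in the embryos. Only the exact letters AATAAA were searched, so members without them are not shown to lack a transcript with a tail. Hist1h2bc, with 204 counts in cumulus cells, is one of these. Its annotated transcript had 1156 bases in 2 exons and no stem-loop.

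Gene counts per library ran from 2442541 to 3757492 in HU embryos, from 317195 to 4051494 in cumulus cells and from 1801261 to 3472116 in control embryos. The ribosomal precursor RNA gene Rn45s took 15.2% to 29.0% of them in HU embryos, 49.3% to 86.6% in cumulus cells and 16.2% to 32.5% in control embryos. Marker lists separated the labelled types: 20 cumulus and granulosa markers summed to 80.2 to 191.0 counts per 1000000 gene counts (CPM) in HU embryos, 417.9 to 5797.9 CPM in cumulus cells and 58.0 to 182.1 CPM in control embryos, while 15 oocyte markers summed to 3178.6 to 6472.3 CPM in HU embryos, at most 61.9 CPM in cumulus cells and 4271.1 to 5829.1 CPM in control embryos. Cumulus cell 2 stood apart from the other cells: it had the 86.6% share of Rn45s, the lowest sum of cumulus markers (417.9 CPM, against a median of 3152.6 CPM over the cells), the highest sum of 10 immune markers (179.4 CPM) and the 61.9 CPM of oocyte markers. Results on cumulus cells that it moved are given with and without it. Markers of theca and stroma, endothelium and erythroid cells reached at most 13.8, 87.3 and 8.46 CPM in HU embryos, 30.7, 20.1 and 5.92 CPM in cumulus cells and 16.6, 101.2 and 6.03 CPM in control embryos. Reads were not tagged by molecule, so the intervals and floors given here hold counting error alone.

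Clustered histone genes were scarce in every library. Their counts summed to 1613 in HU embryos, 1268 in cumulus cells and 1836 in control embryos. A median of 28.5 members had a count in an HU embryo, 3 in a cumulus cell and 30 in a control embryo. After thinning every library to 317195 counts the medians were 12, 3 and 13 in the same order of groups. Detection was lower in cumulus cells over all genes too, with unthinned medians of 15010.5, 6862 and 14513 genes in that order. The fewer members found in cells are therefore in part shared with genes at large. Over a whole group, 52 members were detected in HU embryos, 22 in cumulus cells (16 without cell 2) and 52 in control embryos. In all, 54 members had a count in some embryo, 19 of these also in a cumulus cell, 3 members (Hist1h4k, Hist1h2bn, Hist2h2aa2) had 1 to 4 counts in a single cumulus cell and none in embryos, and 11 members had no count in any library.

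The members without counts were in large part near-identical copies. Of their 50-base stretches, a median of 89.8% also occurred in another member, against 53.3% for the 57 members with counts. At least 90% were shared in 5 of the 11 members without counts and in 4 of the 57 with counts, so sharing did not fully separate them. Hist1h2ao and Hist1h2ap, for example, shared 99.5% of the stretches of the first, and every stretch of Hist2h3c2 lay in Hist2h3c1. The testis linker histone gene Hist1h1t shared none and also stood at 0. Counts of members with close copies, such as Hist1h2an (80.5% shared with Hist1h2ah) and Hist1h2bk (70.7% with Hist1h2bq), are uncertain for this reason, whereas Hist1h1a and Hist4h4 shared no stretch with another member.

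**Figure D1:**
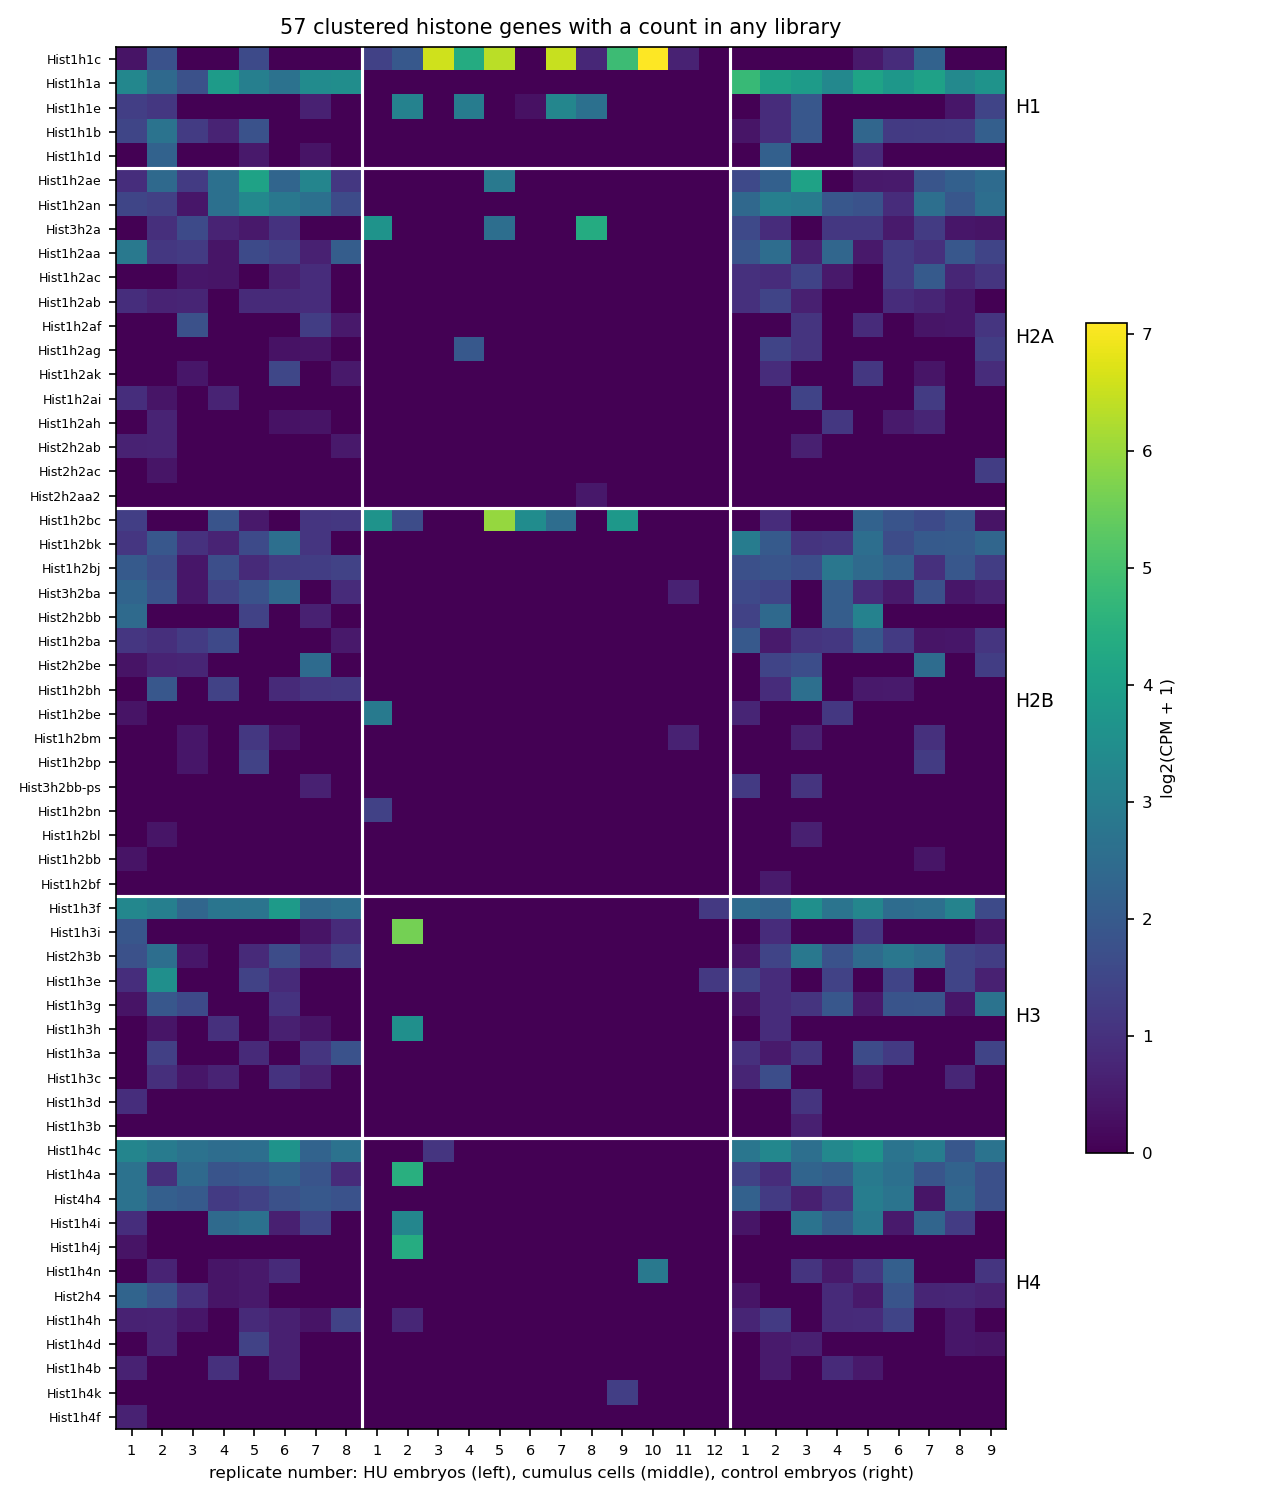
Heat map of log2(CPM + 1) for the 57 members with a count in any library, rows grouped by histone class and columns by library (HU embryos left, cumulus cells in the middle, control embryos right). Embryo columns hold many low values across all classes, while cumulus cell columns hold few genes, with Hist1h1c detected in 10 of 12 cells.

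In all 17 embryos 8 members were detected: the linker histone gene Hist1h1a, the H2A genes Hist1h2an and Hist1h2aa, the H2B gene Hist1h2bj, the H3 gene Hist1h3f and the H4 genes Hist1h4c, Hist1h4a and Hist4h4. Hist1h2aa and its H2B partner Hist1h2ba encode variants known from testis and oocyte. Hist1h2aa had 0.323, 1.48 and 6.29 CPM as lowest, median and highest value in HU embryos, 0 in every cumulus cell, and 0.409, 1.73 and 4.78 CPM in control embryos. Hist1h2ba had a count in 5 of 8 HU embryos, in no cumulus cell and in 9 of 9 control embryos. Both pairs of embryo groups overlapped, and a count of 0 over the 12 cells allows up to 0.125 CPM.

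Per gene length, the order of the members was headed by the same 2 genes in both embryo groups. In HU embryos Hist1h4c, an H4 gene, came first with 16.9 ± 6.64 FPKM (SD, n = 8), ahead of Hist1h1a with 10.4 ± 4.96 FPKM, Hist1h2ae with 9.22 ± 8.96 FPKM and Hist1h2an with 8.71 ± 6.54 FPKM. In control embryos Hist1h1a came first with 19.5 ± 7.20 FPKM (SD, n = 9), then Hist1h4c with 18.02 ± 6.87 FPKM, Hist1h2an with 9.23 ± 4.70 FPKM and Hist1h4a with 7.36 ± 3.86 FPKM. Neighbours in the HU order differed by less than the larger of their SDs. In the control order the step below Hist1h4c was larger than either SD, and the other steps were not. The counts were spread over many members, as the 5 most counted held 46.3% of the member counts in HU embryos and 44.5% in control embryos.

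For H3 and H1 a comparison is given by the replication-independent histone genes H3f3b, H3f3a and H1f0, whose mRNA carries a normal poly(A) tail. The 12 clustered H3 genes together had 20.2 ± 14.2 FPKM in HU embryos, 10.4 ± 34.7 FPKM in cumulus cells (SD over 12 cells, with 120.6 FPKM in cell 2; 0.376 ± 1.25 FPKM over the 11 others) and 22.4 ± 5.69 FPKM in control embryos. The H3.3 gene H3f3b alone had 676.6 ± 181.6 FPKM in HU embryos, a mean of 205.5 FPKM in cumulus cells (224.2 FPKM without cell 2) and 793.5 ± 215.6 FPKM in control embryos. The other H3.3 gene, H3f3a, had 105.0 ± 53.7 FPKM in HU embryos, a mean of 161.0 FPKM in cumulus cells (175.6 FPKM without cell 2) and 112.7 ± 23.6 FPKM in control embryos. For linker histones only the means are set side by side: the 6 clustered H1 genes together had 14.3 ± 5.89 FPKM in HU embryos, 55.3 ± 66.8 FPKM in cumulus cells (59.1 FPKM without cell 2) and 23.8 ± 7.66 FPKM in control embryos. The replication-independent linker histone gene H1f0 had 59.7 ± 14.6 FPKM in HU embryos, 48.3 ± 43.9 FPKM in cumulus cells (50.3 FPKM without cell 2) and 69.2 ± 17.4 FPKM in control embryos. H1f0 was thus above clustered H1 in both embryo groups. In the cells the means of clustered H1 and H1f0 differed by less than either SD, so their order there is uncertain.

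Whether HU changed these transcripts was asked by comparing HU with control embryos. As a sum, the members made up 37.9, 66.4 and 83.8 CPM (lowest, median, highest) in HU embryos, against 57.1, 78.8 and 104.4 CPM in control embryos. Means were 64.4 ± 17.4 CPM in HU embryos and 78.9 ± 15.7 CPM in control embryos (SD, n = 8 and 9), a log2 ratio of -0.29. The groups overlapped widely: 2 HU embryos lay below every control, none lay above, and 2 lay above the control median. With counts set against the ERCC spike-in RNA in place of the library total, the log2 ratio was -0.07. In a library from a whole embryo, fewer cells with a transcript and less of it per cell cannot be told apart.

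By class, H1 summed to 3.72, 11.4 and 17.3 CPM (lowest, median, highest) in HU embryos, against 8.91, 19.4 and 27.0 CPM in control embryos, and none of the 8 HU embryos exceeded the control median. Its means were 10.8 ± 4.48 CPM in HU embryos and 17.9 ± 5.73 CPM in control embryos. H2B had 10.1 ± 3.76 CPM in HU embryos and 14.8 ± 5.02 CPM in control embryos, and a single HU embryo exceeded the middle control value. The other classes had closer means: H2A 14.1 ± 6.62 CPM in HU embryos and 14.6 ± 7.79 CPM in control embryos, H3 12.99 ± 7.67 and 13.7 ± 3.62 CPM in the same order, and H4 16.3 ± 5.14 and 17.8 ± 7.27 CPM. Per ERCC count the log2 ratios of H2A, H3 and H4 turned to 0.15, 0.13 and 0.10, while H1 and H2B stayed below 0 at -0.51 and -0.31. These sums carry no test, because their members were chosen with earlier results known. The H1 difference rested on Hist1h1a: the log2 ratio of the H1 sums was -0.73 with it and -0.16 without it.

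**Figure D2:**
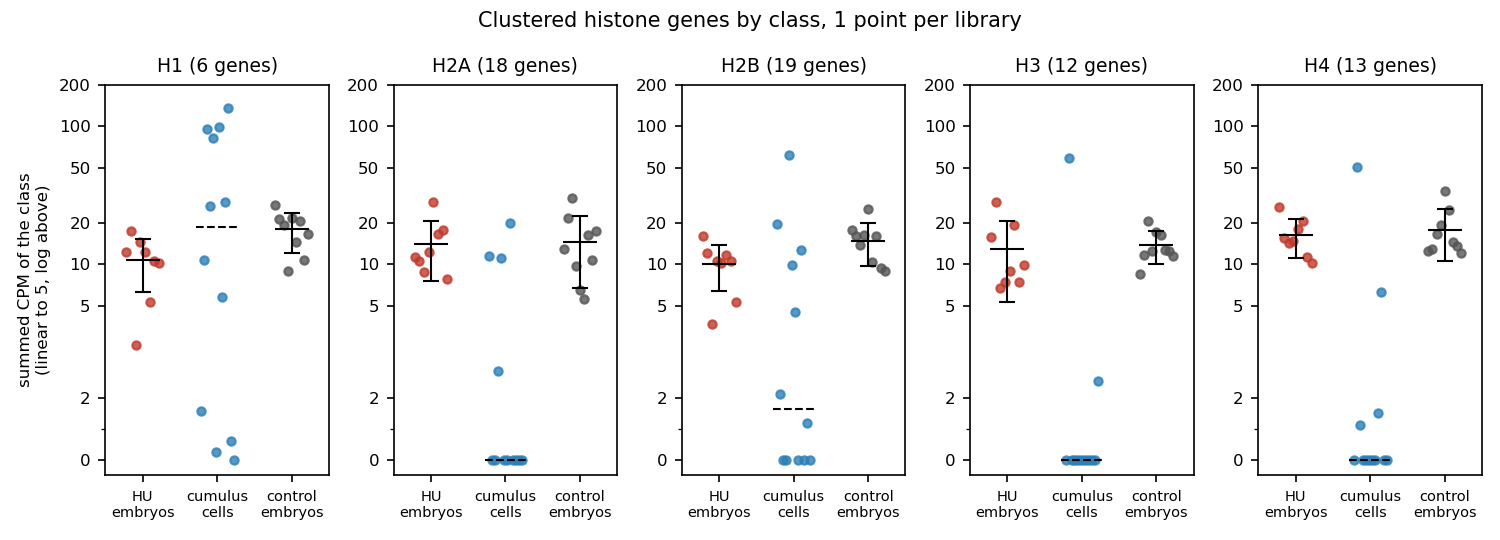
Summed CPM of each histone class (axis linear to 5 CPM and logarithmic above), 1 point per library. Bars over the embryo groups are mean ± SD (n = 8 HU, n = 9 control), and the dashed line in the cumulus cells is their median. HU and control embryos overlap in all 5 classes shown, and most cumulus cells are at 0 for H2A, H3 and H4.

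Along chromosome 13, cluster 1 falls into 2 stretches separated by more than 500000 bases. The stretch at chr13:21715763-22043676 holds 23 members and gave 19.6% of the member counts in HU embryos, 10.9% in cumulus cells (1.46% without cell 2, which held 122 of the 138 counts) and 22.1% in control embryos. The stretch at chr13:23531050-23934851 holds 31 members and gave 64.5% in HU embryos, 81.9% in cumulus cells (90.2% without cell 2) and 62.1% in control embryos. Cluster 2 summed to 4.51 ± 3.99 CPM in HU embryos and 7.16 ± 3.49 CPM in control embryos, with 4 of 8 HU embryos below every control, while in cumulus cells it had 1 count in all. Cluster 3 summed to 2.69 ± 1.57 CPM in HU embryos and 2.40 ± 1.71 CPM in control embryos. The single cluster 4 gene, Hist4h4, had 2.81 ± 1.26 CPM in HU embryos, no count in cumulus cells and 2.90 ± 2.34 CPM in control embryos. In cluster 3 and Hist4h4 the embryo group means differed by less than either SD, and in cluster 2 by less than 1 SD as well.

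Only 5 members had enough counts for the test across all genes, edgeR's quasi-likelihood test with Benjamini-Hochberg adjustment over 11476 genes. No gene passed an adjusted p of 0.05 in either direction (0.0% higher, 0.0% lower), so no member did. At an unadjusted p under 0.05 the test gave 419 genes higher (3.65%) and 250 lower (2.18%) over all genes, and DESeq2 called 2 genes higher and 1 lower after adjustment, none of them a member. The 5 tested members had a median log2 fold change of -0.05, against 0.03 over all genes tested. These 5 had the most counts over the 17 embryos together. The other 63 did not pass the low-count filter and were not tested, which is not a finding of no change.

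Hist1h1a, a linker histone gene, had 2.37, 7.999 and 13.9 CPM (lowest, median, highest) in HU embryos, against 8.91, 13.9 and 26.7 CPM in control embryos. In 5 of the 8 HU embryos the value lay below every control embryo, in none above the control median, and in the other 3 within the control range, so the groups overlapped. The log2 fold change was -0.88 ± 0.39 (SE), with an unadjusted p of 0.0326 and an edgeR adjusted p of 0.840. The direction was the same in all 26 alternative fits, over which the log2 fold change ran from -1.06 to -0.70, the unadjusted p from 0.00426 to 0.107 and the adjusted p from 0.478 to 1.00. It was the 1 member of 5 with an unadjusted p under 0.05, and over all genes 2.18% were lower at that level. In 7 of the 26 alternatives that p missed 0.05, among them the fit without control embryo 1, which had the highest value (log2 fold change -0.70, p = 0.0867). Beside this gene, the summed oocyte markers had a median of 4480.5 CPM in HU embryos and 5417.7 CPM in control embryos, and their part in the difference was not tested.

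The 4 other tested members showed differences within the spread between embryos. Hist1h3f, an H3 gene, had 4.06, 5.75 and 13.6 CPM in HU embryos and 2.02, 4.98 and 10.6 CPM in control embryos, with a log2 fold change of 0.27 ± 0.42 (SE, edgeR adjusted p = 0.937). Hist1h2ae, an H2A gene, had 0.898, 4.16 and 15.9 CPM in HU embryos and 0, 2.66 and 16.1 CPM in control embryos, with a log2 fold change of 0.48 ± 0.75 (edgeR adjusted p = 0.937). In each of these groups 1 embryo stood at about 16 CPM, so the groups spanned nearly the same range. Hist1h4c had 3.74, 5.37 and 11.4 CPM in HU embryos and 2.78, 5.93 and 11.5 CPM in control embryos (-0.05 ± 0.40, edgeR adjusted p = 0.991). Hist1h2an had 0.338, 3.604 and 8.95 CPM in HU embryos and 0.861, 4.29 and 7.38 CPM in control embryos (-0.06 ± 0.57, edgeR adjusted p = 0.991). The signs of these last 2 changed in some alternative fits.

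**Figure D3:**
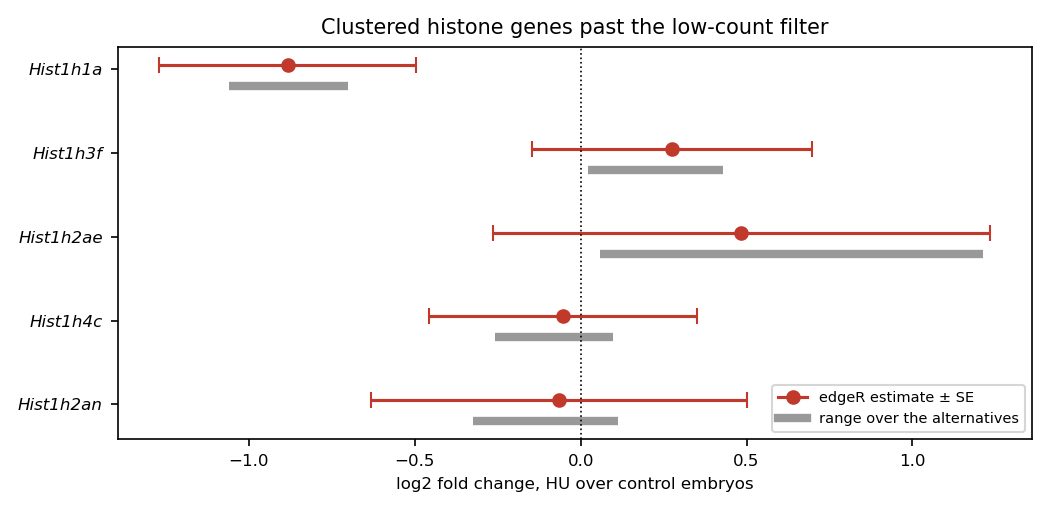
Log2 fold changes of HU over control embryos for the 5 members past the low-count filter: points are edgeR estimates with SE, and grey bars the range over 26 alternative fits. Hist1h1a lies at -0.88 with its whole grey range below 0, and the ranges of Hist1h4c and Hist1h2an cross 0.

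Below the filter, the H2B genes Hist1h2bk and Hist1h2bj were the most counted of their class in embryos. Hist1h2bk had 0, 1.17 and 5.06 CPM in HU embryos, against 1.11, 3.04 and 6.92 CPM in control embryos, with 3 of 8 HU embryos below every control. Hist1h2bj had 0.338, 1.54 and 2.99 CPM in HU embryos, against 0.996, 2.61 and 6.07 CPM in control embryos, with 2 of 8 HU embryos below every control. Hist1h4a had 0.819, 2.72 and 5.39 CPM in HU embryos and 0.869, 3.24 and 6.55 CPM in control embryos. In a fit without the low-count filter (19499 genes), 54 members had a value, 22 above 0 and 32 below. Hist1h1a was again the 1 member under an unadjusted p of 0.05 (p = 0.0449, edgeR adjusted p = 0.478). No member had groups that did not overlap, which was the case for 2 of all 11476 genes (0.0174%).

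**Figure D4:**
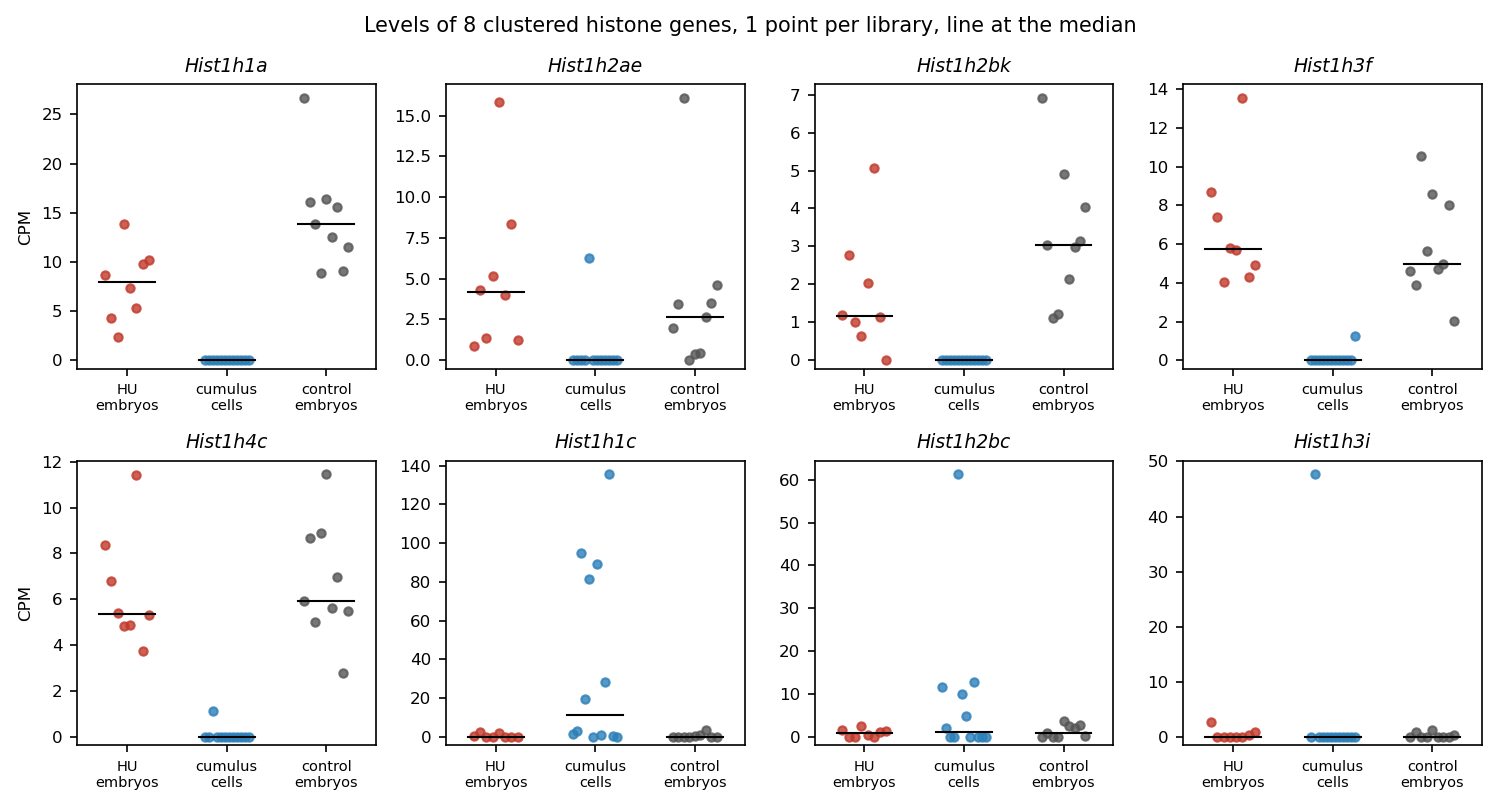
CPM of 8 members in each library, with a line at each group's median and a linear axis of its own per gene. Hist1h1a is at 0 in every cumulus cell and has medians of 7.999 CPM in HU and 13.9 CPM in control embryos. Hist1h1c reaches 135.6 CPM in cumulus cell 10, the library with the fewest gene counts, and Hist1h3i is high in cumulus cell 2 alone.

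Genes that act on these transcripts were well covered in the embryos. Of 41 genes of histone mRNA processing and decay, all were in the table and 37 were tested: none passed, and 1 gene on each side had an unadjusted p under 0.05 (over all genes, 3.65% higher and 2.18% lower). The 2 with the highest mean CPM over all 17 embryos were Casp8ap2, which encodes a component of histone locus bodies, with 322.3 ± 53.1 CPM in HU embryos and 353.2 ± 68.2 CPM in control embryos (log2 fold change -0.13 ± 0.16), and Slbp with 214.8 ± 65.5 and 254.9 ± 150.5 CPM in the same order (-0.19 ± 0.28). Npat, the coactivator of histone gene transcription, had 99.7 ± 42.7 CPM in HU embryos and 122.1 ± 62.7 CPM in control embryos (-0.28 ± 0.29). All 3 group differences were smaller than the spread between embryos.

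Lsm10 and Lsm11 encode proteins of the U7 particle, which cuts the histone transcript. Lsm10 had 39.9 ± 11.4 CPM in HU embryos and 47.0 ± 22.7 CPM in control embryos, and Lsm11 16.6 ± 9.23 and 11.4 ± 6.14 CPM in the same order. Zfp473, another factor linked to this particle, had 13.8 ± 7.79 CPM in HU embryos and 19.1 ± 8.82 CPM in control embryos. Eri1, the exonuclease that trims and degrades histone mRNA ends, had 40.6 ± 18.7 CPM in HU embryos and 35.6 ± 15.6 CPM in control embryos. The differences of these 4 genes were smaller than the SD of either group. Of the decay factors of the Lsm ring, Lsm1 had 96.2 ± 27.8 CPM in HU embryos and 134.4 ± 32.6 CPM in control embryos (-0.46 ± 0.22, unadjusted p = 0.0465, edgeR adjusted p = 0.840). Lsm3 had 62.4 ± 18.6 CPM in HU embryos and 46.2 ± 9.59 CPM in control embryos (0.46 ± 0.22, unadjusted p = 0.0422, edgeR adjusted p = 0.840).

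Among 18 genes of histone gene transcription, all tested, none passed either. The cyclin genes Ccna2 and Ccne1 had the highest mean CPM over all 17 embryos, Ccna2 with 682.5 ± 193.2 CPM in HU embryos, no count in cumulus cells and 596.1 ± 102.0 CPM in control embryos, and Ccne1 with 526.8 ± 234.7 CPM in HU embryos and 552.5 ± 132.3 CPM in control embryos. E2f1, a transcription factor of S phase entry, had 81.3, 104.1 and 133.9 CPM (lowest, median, highest) in HU embryos and 47.1, 64.8 and 87.6 CPM in control embryos. Its log2 fold change was 0.64 ± 0.19 (SE, unadjusted p = 0.00217, edgeR adjusted p = 0.840), and the groups overlapped. None of the 26 S phase genes, the 10 tested genes listed as replication-independent histones and the 18 histone chaperone genes passed. Beside Slbp, the S phase gene with the highest CPM on that measure was Tipin, a replication fork protein, with 292.0 ± 87.3 CPM in HU embryos and 230.1 ± 44.8 CPM in control embryos (0.36 ± 0.18, edgeR adjusted p = 0.840). Beside H3f3b, the replication-independent gene next in CPM was Cenpa, the centromeric H3, with 336.4 ± 202.7 CPM in HU embryos and 306.1 ± 90.1 CPM in control embryos. The chaperone genes with the highest CPM on the same measure were Nap1l4, with 265.3 ± 36.5 CPM in HU embryos and 261.8 ± 72.8 CPM in control embryos, and Atrx, with 191.0 ± 26.9 CPM in HU embryos and 249.8 ± 61.2 CPM in control embryos. Atrx had an unadjusted p of 0.0412 (-0.38 ± 0.18, edgeR adjusted p = 0.840), and 2 further chaperone genes, Ubn1 and Chaf1a, had one under 0.05 on the higher side. Over all genes tested 3.65% were higher and 2.18% lower at that level. Summed over the S phase list, levels were 1942.0 to 3858.0 CPM in HU embryos, 109.3 to 379.3 CPM in cumulus cells and 1771.4 to 3444.5 CPM in control embryos.

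Donor-type cells and embryos differed in which members were found, and fewer of all genes were detected in a cell, as given above. Summed over the 12 cumulus cells the members made up 52.7 CPM (95% exact Poisson interval 49.8 to 55.7), or 48.4 CPM without cell 2, against 77.4 CPM over the control embryos (73.9 to 81.0). The direction of this total depended on the scaling: the log2 ratio was -0.55 per gene count, 0.37 with Rn45s left out of the totals, and -4.07 per ERCC count. Cells varied widely, with 1.78, 37.6 and 154.0 CPM as lowest, median and highest. Of the cumulus cells' member counts, 56.6% belonged to Hist1h1c (65.0% without cell 2) and 89.4% to the 5 most counted members (97.1% without cell 2).

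Hist1h1c, the linker histone gene with both signals printed above, led the cumulus cells. It had 0, 11.2 and 135.6 CPM as lowest, median and highest over the 12 cells and was detected in 10 of them, against 0, 0 and 3.65 CPM in control embryos, 3 of 9 with a count. Summed over libraries this was 29.8 CPM (27.7 to 32.1) in cumulus cells and 0.590 CPM (0.323 to 0.990) in control embryos, 50.5-fold higher in the cells (53.4-fold without cell 2). Hist1h2bc, an H2B gene, had 8.48 CPM over the cells, detected in 6, and 1.35 CPM over the control embryos, 6.29-fold higher in the cells (6.58-fold without cell 2). The 4 cells at 81.6 CPM or more held most of Hist1h1c, and 1 cell at 61.3 CPM held the highest Hist1h2bc, so single cells weigh heavily in these sums. The highest Hist1h1c value was in cell 10, the library with the fewest gene counts (317195). That cell had 45 member counts, and 3 of the 20 cumulus and granulosa markers were detected in it. Hist1h1e, another linker histone gene, was found in 5 cells, and Hist3h2a, with a signal for polyadenylation, in 3 cells with a highest value of 19.7 CPM. The other 18 members detected in cumulus cells were each found in 1 cell.

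The clustered linker histone gene with the highest level in embryos, Hist1h1a, was not detected in the cells. It had 0 counts in all 12 cumulus cells and 347 counts in the 9 control embryos, at least 117.3-fold lower in the cells when 0 is set to a floor of 3 counts over the group. On the same basis Hist1h2an was 32.8-fold, Hist1h2bk 27.7-fold, Hist4h4 23.3-fold and Hist1h2bj 22.6-fold lower in the cells. Hist1h3f had 1 count in the cells against 133 in control embryos, and Hist1h4c had 3 against 158.

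Core histone classes H3 and H4 were represented in cumulus cells by cell 2 almost alone. It held 67 counts of Hist1h3i, 30 of Hist1h4a, 28 of Hist1h4j, 15 of Hist1h3h and 12 of Hist1h4i, and no other cell had a count of any of these 5. H3 summed to 3.49 CPM over the cells and to 0.0883 CPM (0.0107 to 0.319) without cell 2, against 13.3 CPM over the control embryos. H4 summed to 3.33 CPM over the cells and to 0.397 CPM (0.182 to 0.754) without cell 2, against 17.3 CPM over the control embryos. The part played by the marker levels and the Rn45s share of cell 2 in these counts was not tested.

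**Figure D5:**
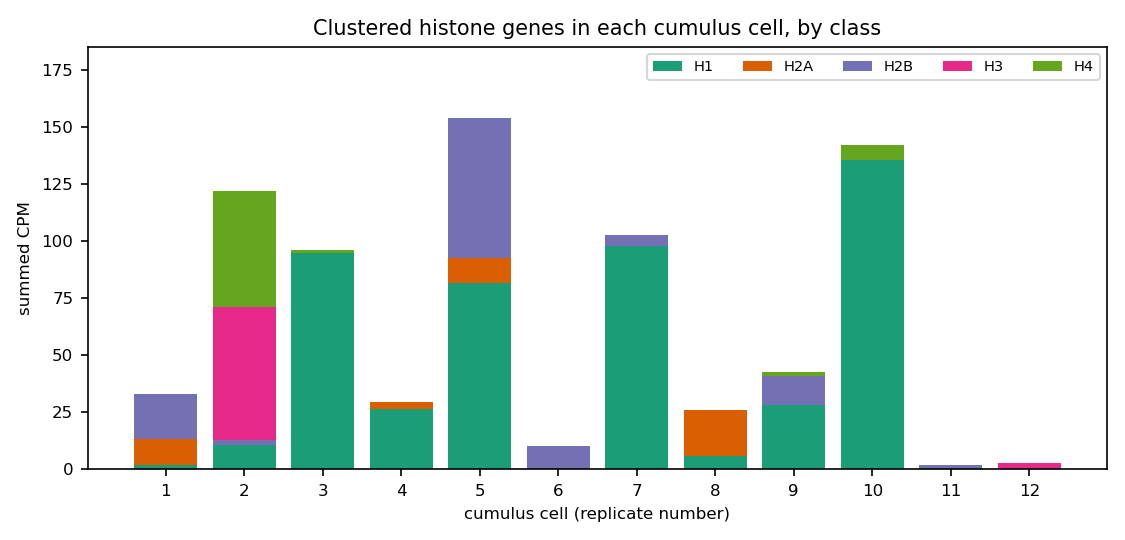
Summed CPM of the members in each of the 12 cumulus cells, stacked by histone class. H1 makes up most of the bar in cells 3, 4, 5, 7, 9 and 10, whereas cell 2 is mostly H3 and H4, classes at 0 in the other cells except for H4 in cells 3, 9 and 10 and H3 in cell 12, at 1.13 to 6.31 CPM.

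With a limit of 4-fold on summed CPM + 1, and at least 1 CPM on the higher side, 25 members could be compared between cumulus cells and control embryos. Of these, 2 were higher in the cells, against 7.79% of all 15245 genes, and 6 were lower, against 31.7% of all genes. The higher ones were Hist1h1c and Hist1h2bc, and the lower ones Hist1h1a, Hist1h2an, Hist1h2bk, Hist1h3f, Hist1h4c and Hist2h3b. Shares of 25 members this close to those of all genes are not a result about the family. Because 1 CPM was added, members low in control embryos could not be called lower, so these shares also depend on level. Hist4h4 (2.91 CPM over control embryos) and Hist1h2bj (2.82 CPM), both at 0 in the cells, had log2 ratios of -1.97 and -1.93, short of 4-fold. The median log2 ratio was -1.45 over the members and -1.13 over all genes. Without cell 2 the counts were 2 higher and 7 lower of 23 members, the seventh being Hist1h4a. Cumulus markers, S phase genes and Rn45s also differed between cells and embryos, as given above, and their part in these ratios was not tested.

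Promoter windows of the members carried the letters known from histone gene promoters. In the RefSeq windows (GRCm38.p6) from 250 bases before to 50 bases after each gene start, available for 62 members as 63 windows, TATAAA was found on either strand in 35 (55.6%), against 13.6% of all 32851 windows. CCAAT was found on either strand in 54 (85.7%), against 37.4% of all windows. A TATAAA and a CCAAT match can share 1 base, windows of neighbouring divergent genes can overlap, and a match is a description and not a site of action.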

How the data were processed

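Single embryos and single cumulus cells were sequenced after Smart-seq2, a full-length cDNA method without strand or molecule marks. The authors deposited raw counts per gene and FPKM values. The submitters' processing notes name the build mm10 and the tools STAR 2.7.3a, FastQC and R 4.0.2. Which program counted reads, on which annotation and strand, and what became of multiply mapped reads is not given in the sources used here. Each deposited FPKM value equalled the count divided by gene length and total gene counts for 18588 of 18588 genes counted in at least 2 libraries (tolerance 0.001), so FPKM holds no further normalization. ERCC rows (92 of 24540) were left out of totals and tests.

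HU and control embryos were compared with edgeR 4.0.16 (R 4.3.3; TMM, filterByExpr, quasi-likelihood test, 17 embryos in the fit, no covariate, Benjamini-Hochberg over all genes tested, threshold 0.05). The fit was run on counts simulated from its own means and dispersions, which checks the code and not the changes reported here. Alternatives were other scalings, limma 3.58.1, DESeq2 1.42.0, no filter, FPKM, a replicate block and leaving out each library. Values are CPM per gene count unless FPKM is named. Cumulus cells were summed, with exact Poisson intervals, and not tested. Members and lists were chosen with earlier results of these data known. Described in full were the 6 members with the highest mean FPKM per group, those with the smallest p, and the most counted member of each class in embryos and in cells. Other members were named after their values were seen. Sequences came from GENCODE M21 and RefSeq tables (68 of 68 members matched in each).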

Additional observations from a re-analysis of the deposited data

Results flagged for a closer look

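Of 40 sets of values (a class sum or a described member within 1 embryo group), 5 had 1 embryo far from the rest of its group by Dixon's criterion. For normally distributed values chance flags about 1 of 20 sets. Sets made up mostly of 0 values, as those of Hist1h1c, Hist1h3i and Hist1h4j below, are not of that kind. The count of 5 can therefore not be set against that rate. Hist1h1a stood at 26.7 CPM in control embryo 1, with the next control at 16.4 CPM. Hist1h2ae stood at 16.1 CPM in control embryo 3, with the next control at 4.61 CPM. Hist1h1c, the gene leading in cumulus cells, stood at 3.65 CPM in control embryo 7, with the next control at 0.861 CPM. In HU embryo 1, Hist1h3i stood at 2.69 CPM, with the next HU embryo at 0.819 CPM, and Hist1h4j at 0.299 CPM from 1 count, with every other HU embryo at 0.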

How the results depend on the processing

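Calls between HU and control embryos stayed at 0 higher and 0 lower under every alternative except DESeq2 (2 higher, 1 lower) and, when each embryo was left out in turn, 1 of the 17 fits (range 0 to 1 higher, 0 to 0 lower; the 1 call came without HU embryo 8). The replicate numbers of the labels did not pair the embryos: over 8 same-numbered pairs, deviations correlated from -0.10 to 0.18, 1 pair exceeded 0.1 and 1 HU embryo correlated best with its own number. With the replicate number as a block, 0 genes were called in either direction, and an unadjusted p under 0.05 was reached by 274 genes on the higher side and 262 on the lower, against 419 and 250 without it.

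Hist1h1a, Hist1h3f and Hist1h2ae kept their direction in all 26 alternatives. Hist1h4c and Hist1h2an, both near 0, did not: Hist1h4c was at 0.0981 with ERCC counts as library size, 0.0068 with limma-voom and from -0.2591 to 0.0534 without 1 embryo, and Hist1h2an was at 0.0465 with ERCC counts and from -0.2989 to 0.112 without 1 embryo. The cause was not tested. ERCC scaling moved the median of all genes to 0.19, against 0.03, and relative to that median Hist1h1a was at -0.95, Hist1h4c at -0.09 and Hist1h2an at -0.14. The HU ratio of the summed members ran from -0.28 to -0.07 over other scalings and from -0.36 to -0.21 without 1 embryo.

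The total of cumulus cells over control embryos (-0.55) moved to -0.31 as a mean of cells, 0.37 without Rn45s, -4.07 per ERCC count and -1.75 without Hist1h1c, and ran from -0.74 to -0.34 without 1 cell. Without cell 2, chosen after seeing the data, H3 stood at -7.23 in place of -1.93 and H4 at -5.45 in place of -2.38, and the first chromosome 13 stretch held 1.46% of the member counts of the cells in place of 10.9%. At 5 counts in a library, 30 members were detected in HU embryos, 12 in cumulus cells and 32 in control embryos.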
